A study of Mus musculus with 10 samples.

Results

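The genes described here are 10 members of the fibroblast growth factor (FGF) pathway in the embryonic mouse biliary tract: the ligands Fgf7, Fgf9 and Fgf10, the receptors Fgfr1, Fgfr2 and Fgfr3, the Sprouty genes Spry1, Spry2 and Spry4, and the target gene Etv5. They were listed by name, and each was read by every probe set that the platform annotation gives to that 1 gene. This yielded 23 probe sets out of 34945 with exactly 1 gene symbol, which cover 18193 genes. Of the 23, 17 lay above the filter on low signal (a mean log2 signal of 4.81), and every one of the 10 genes kept at least 1 of them. The 6 below it were 3 of the 4 for Spry4, 2 of the 3 for Etv5 and 1 of the 3 for Fgfr2.

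Total RNA of 10 mouse embryo samples taken at 15 days post coitum (dpc) was hybridised to Affymetrix arrays, 2 samples a group. The groups were B6 Sox17+/- gallbladder, B6 wild type gallbladder, ICR Sox17+/- gallbladder, ICR wild type cystic duct and ICR wild type gallbladder. Sox17+/- embryos are heterozygous at Sox17, which encodes a transcription factor of biliary progenitors. The sources used here do not give the nature of the allele, any pooling of embryos, the litters or the array batches. Strain and a batch that runs with it therefore cannot be told apart. The p-values measure the spread between samples that the series design calls biological replicates.

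FGF ligands are secreted and bind receptor tyrosine kinases on neighbouring cells. Fgf7 and Fgf10 are typically made by mesenchyme and act on the epithelial splice form of Fgfr2, whereas Fgf9 signals mainly through the mesenchymal forms of the receptors. In the developing hepatopancreatic duct system Fgf10 from the mesenchyme acts on the adjacent epithelium. Receptor activation drives the Ras and ERK cascade, which induces ETS factors such as Etv5 and the Sprouty proteins, and Sprouty proteins dampen the same cascade as feedback inhibitors.

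Sequences upstream of the transcription start are shown for the 3 genes that passed a test in one of the comparisons below, so that their proximal promoters can be read beside the values. Of these genes, Fgf10 was tested only through its ICR signal. Each sequence is the stretch of 250 bases before the start on the gene's own strand, from RefSeq on GRCm38.p6. They lie at chr2:126034408-126034657 on the + strand for Fgf7, chr13:118714449-118714698 on the + strand for Fgf10 and chr7:130266809-130267058 on the - strand for Fgfr2. Capitals mark a CCAAT box in Fgf7 (bases -53 to -49 from the start) and a GC box, read on the other strand as CCGCCC, in Fgf10 (bases -199 to -194).
Fgf7: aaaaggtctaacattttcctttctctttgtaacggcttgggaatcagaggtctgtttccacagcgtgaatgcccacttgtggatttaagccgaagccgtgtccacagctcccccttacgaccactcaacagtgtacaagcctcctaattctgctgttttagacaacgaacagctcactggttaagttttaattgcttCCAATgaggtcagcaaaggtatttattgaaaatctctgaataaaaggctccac
Fgf10: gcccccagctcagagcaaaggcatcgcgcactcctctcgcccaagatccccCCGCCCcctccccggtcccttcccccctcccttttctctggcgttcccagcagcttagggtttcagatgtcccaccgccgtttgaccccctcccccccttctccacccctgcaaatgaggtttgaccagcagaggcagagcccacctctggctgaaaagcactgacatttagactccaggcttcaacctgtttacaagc
Fgfr2: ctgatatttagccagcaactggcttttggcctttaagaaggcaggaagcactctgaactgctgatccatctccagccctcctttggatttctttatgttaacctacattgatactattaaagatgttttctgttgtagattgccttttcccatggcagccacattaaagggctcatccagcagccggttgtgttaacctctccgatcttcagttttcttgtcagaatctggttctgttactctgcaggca
The Fgf10 stretch is 61.2% G and C, the Fgf7 stretch 43.6% and the Fgfr2 stretch 44.0%. Both strands were searched for a SOX core spelled ACAAT, for an ETS site spelled CCGGAAG and for the CCAAT and GC boxes. The CCAAT box was searched as those letters, which share their last letters, CAAT, with the SOX core. The GC box was searched as GGGCGG, which shares the letters CGG with the ETS site. Upstream sequences were used for 8 of the 10 genes. The SOX core was in 0 of the 8 (28.3% of 27025 genes searched the same way) and the ETS site in 0 of the 8 (7.05% of those genes). The CCAAT box was in 4 of the 8 (34.5%) and the GC box in 4 of the 8 (32.9%). A match describes letters in this window and not a bound site.

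Sox17 itself was lower where the labels place the altered copy. Its probe set 1421657_a_at read 8.03 and 7.91 in B6 Sox17+/- gallbladders, against 9.29 and 9.04 in B6 wild type, and 7.65 and 7.90 in ICR Sox17+/- gallbladders, against 9.53 and 9.25 in ICR wild type (log2 signal). The fall over both strains was 2.64-fold (limma, adjusted p = 0.00852). Replicates were compared over the 24461 probe sets above the filter. They correlated at r = 0.983 to 0.995 in the B6 groups and ICR Sox17+/- gallbladder, at 0.960 in ICR wild type gallbladder and at 0.889 in cystic duct. The cystic duct pair differed by more than 1 log2 unit on 6259 probe sets and the ICR wild type gallbladder pair on 1105, against 29 to 421 in the others, so the main results that rest on ICR wild type samples are followed by the range over fits with 1 library left out. Biliary epithelial markers (8 of 8 measured genes above the filter) had summed levels of 13.49 to 14.11 log2 over all 10 samples.

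A probe set was called where its adjusted p was under 0.05 over all probe sets tested. None of the 17 probe sets was called between Sox17+/- and wild type gallbladder over both strains (0 of 17, where 0.135% of 24461 probe sets tested were called), in ICR (0 of 17, background 0.0491%) or in B6 (0 of 17, background 0.0123%). At an unadjusted p under 0.05 there were 3 of 17 over both strains (against 9.94% of all probe sets tested), 3 in ICR (12.4%) and 1 in B6 (4.93%). The genotype effect differed between strains for 0 of 17 (background 0%, with 1 of 17 and 5.81% at an unadjusted p under 0.05). The 14 probe sets not past the unadjusted threshold over both strains had log2 differences of -0.30 to 0.66, with 95% bounds from -0.88 to 1.40.

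Between strains 2 of 17 were called, 1 probe set of Fgfr2 higher and that of Fgf10 lower in B6 (background 15.6% in either direction, 6.73% higher and 8.9% lower), with 5 of 17 at an unadjusted p under 0.05 (31.6%). The B6 values of the Fgf10 probe set all lay under the filter, so it was tested only through its ICR signal. Between cystic duct and gallbladder 2 of 17 were called, both of Fgf7 and both lower (background 11.2% in either direction, 4.02% higher and 7.15% lower), with 5 of 17 at an unadjusted p under 0.05 (29.3%). These shares lie near the background, so the counts set the FGF genes apart from other genes in neither comparison. The median difference of the 17 was -0.11 between strains, against 0.05 over all probe sets, and -0.16 between cystic duct and gallbladder, against -0.07. The genotype comparison in ICR and the tissue comparison share the ICR wild type gallbladder samples. With the values as deposited, the called probe sets of the whole array split as 591 higher and 2256 lower between strains, against 1646 higher and 2176 lower after quantile normalization and 2561 higher and 1818 lower after median centring. For cystic duct the splits were 332 higher and 2331 lower, 983 higher and 1749 lower, and 457 higher and 1503 lower in that order. The signs of the Fgf7, Fgf10 and Fgfr2 calls were the same under all 3 scalings.

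**Figure D1:**
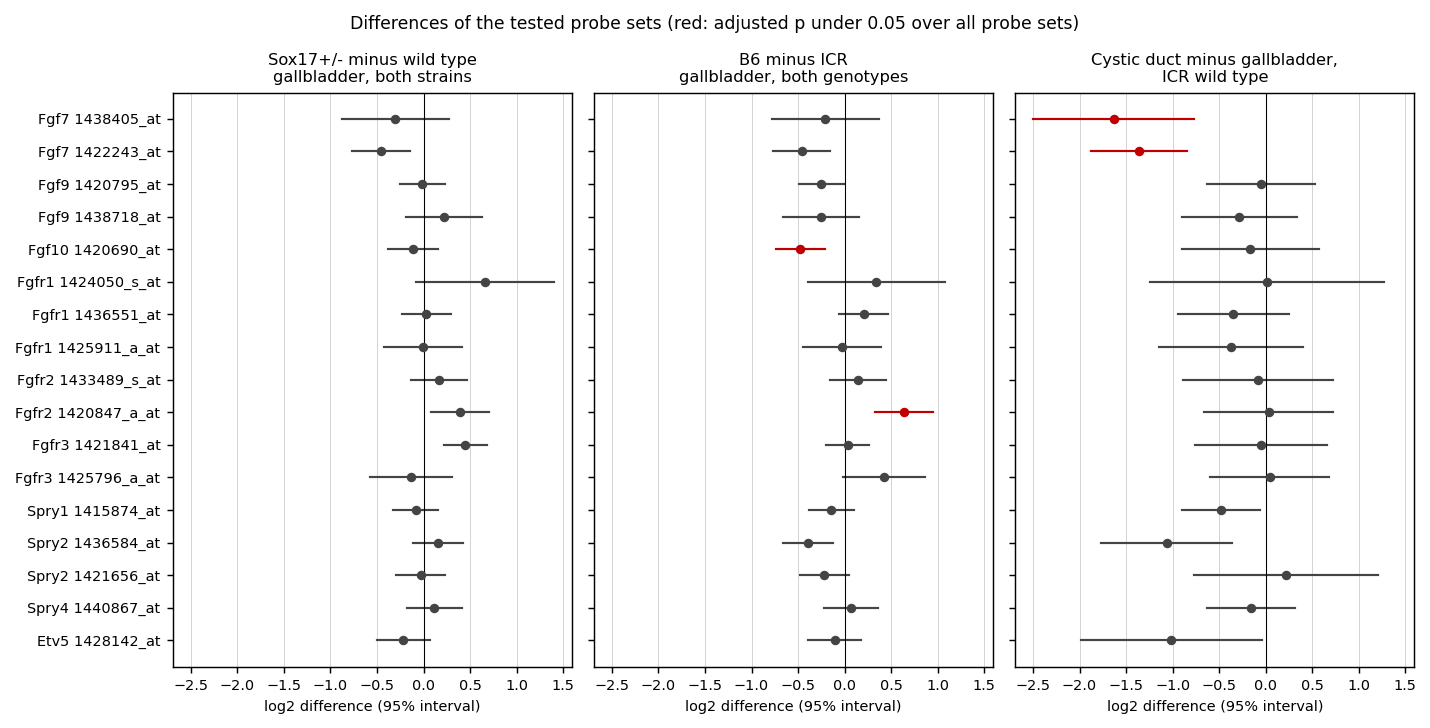
Log2 differences (x axis) with 95% confidence intervals for the 17 probe sets above the filter in the comparisons of genotype, strain and tissue. The intervals of both Fgf7 probe sets lie below 0 for cystic duct minus gallbladder, and cystic duct intervals are wider than those between gallbladder groups.

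**Figure D2:**
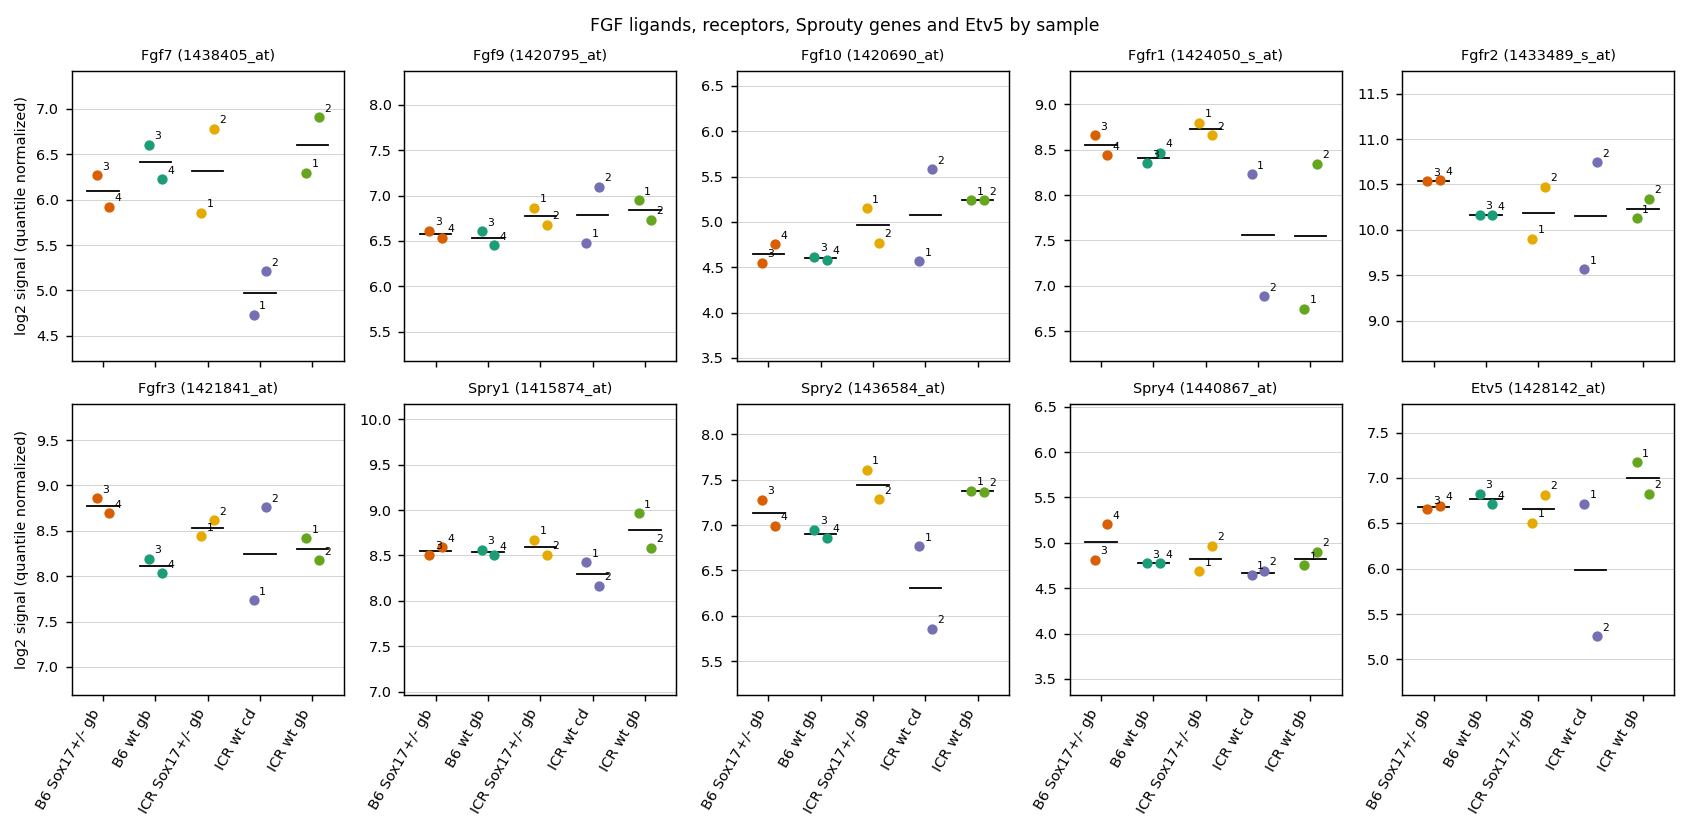
Log2 signal (quantile normalized, y axes) of the 10 genes in each sample, 1 panel per gene, read by the gene's brightest probe set; gb is gallbladder, cd cystic duct and wt wild type, points are samples marked with their replicate numbers, and bars are group means. Both cystic duct samples of Fgf7 lie below all 8 gallbladder samples, and ICR wild type gallbladder replicate 1 lies far below replicate 2 for Fgfr1.

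Fgf7, the keratinocyte growth factor made by mesenchyme, was the only one of the 10 genes called between cystic duct and gallbladder. On probe set 1438405_at it read 4.73 and 5.21 in ICR wild type cystic duct, against 6.30 and 6.91 in ICR wild type gallbladder (log2 signal). On probe set 1422243_at it read 4.90 and 4.94 in cystic duct, against 6.42 and 6.14 in gallbladder. On both probe sets the 2 cystic duct samples were below every one of the 8 gallbladder samples of the series. Fgf7 was 3.10-fold lower in cystic duct on 1438405_at (95% confidence interval 1.71 to 5.64, log2 difference -1.63 ± 0.37 SE, limma adjusted p = 0.0313) and 2.57-fold lower on 1422243_at (1.80 to 3.66, -1.36 ± 0.22 SE, adjusted p = 0.0103). In bulk tissue, fewer Fgf7-making cells and less Fgf7 RNA per cell cannot be told apart.

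The Fgf7 difference depended on the library and on how the spread was estimated. Leaving out single libraries gave log2 differences of -1.51 to -1.22 on 1422243_at, which passed in 9 of 10 fits, the exception being the fit without replicate 1 of the ICR wild type gallbladder pair (adjusted p = 0.0689). On 1438405_at the differences ran from -1.94 to -1.33, and 4 of 10 fits passed: it did not pass when either ICR wild type gallbladder sample was left out (adjusted p = 0.0699 without replicate 1 and 0.150 without replicate 2), and without any 1 of the 4 B6 samples, which enter only through the shared variance (0.0608 to 0.0652). With the 4 compared samples alone neither probe set passed (adjusted p = 0.271 for 1438405_at and 0.274 for 1422243_at), nor with weights per array (0.482 and 0.359).

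Other cell types differed between the same samples. All 9 measured hepatocyte markers were above the filter, 8 were called higher in cystic duct, and their summed level was 17.10 and 16.80 log2 in cystic duct, against 14.99 and 14.60 in gallbladder. Of 5 tested erythroid markers 3 were called higher, and of 8 smooth muscle markers 5 were called lower, with summed levels of 12.60 and 13.36 for smooth muscle in cystic duct, against 14.70 and 14.78 in gallbladder. Mesenchyme and fibroblast markers, the class that usually makes Fgf7, had 3 of 10 called lower and 0 called higher, while 4 of the 10 had differences above 0. Their summed levels were 16.04 and 16.63 in cystic duct, against 16.70 and 16.83 in gallbladder. Their mean levels were 11.58 and 12.34 in cystic duct, against 11.85 and 12.31 in gallbladder. Of 8 biliary epithelial markers Krt19 was called lower (log2 difference -1.15, limma adjusted p = 0.0129) and Krt18 higher (0.59, adjusted p = 0.0372), and of 5 mesothelial markers Msln was called lower (-0.86, adjusted p = 0.0448). Set against the mean of those 10 mesenchyme markers in each sample, Fgf7 on 1438405_at stood at -6.85 and -7.13 in cystic duct and at -5.55 and -5.40 in gallbladder, which did not overlap. On that scale 1422243_at stood at -6.68 and -7.40 in cystic duct and at -5.43 and -6.18 in ICR wild type gallbladder, but B6 gallbladder values of -6.73, -6.82 and -7.13 lay within the cystic duct range. Refitted on that scale the differences were -1.51 on 1438405_at (adjusted p = 0.0862) and -1.24 on 1422243_at (adjusted p = 0.157), and neither passed. The part of the hepatocyte, blood and muscle differences in the Fgf7 result was not tested.

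**Figure D3:**
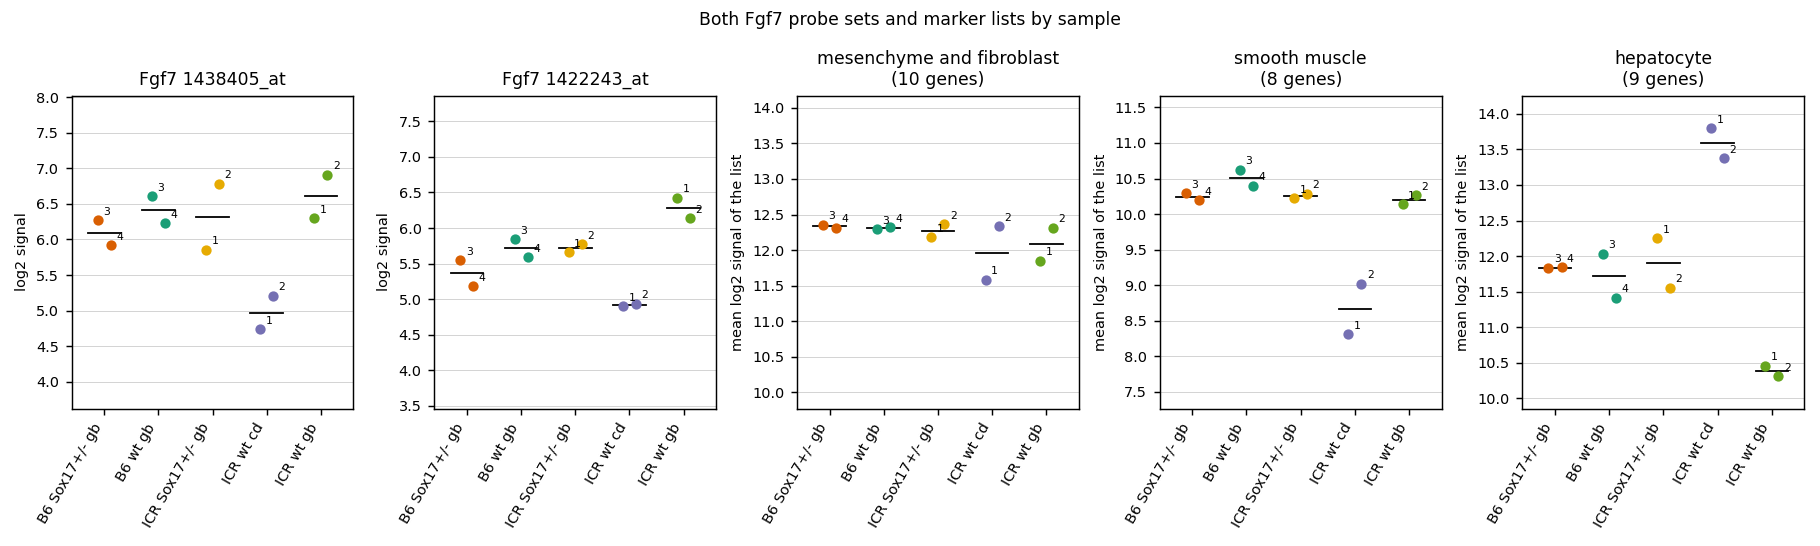
Fgf7 log2 signal by sample beside the mean log2 level of cell type marker lists in the same samples (gb gallbladder, cd cystic duct, wt wild type; points are samples with their replicate numbers). Cystic duct samples have the lowest Fgf7 values and smooth muscle means of 8.31 and 9.02, and the highest hepatocyte means, 13.80 and 13.38.

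Across the 5 groups Fgf7 on 1438405_at averaged 6.09 ± 0.24 in B6 Sox17+/- gallbladder, 6.42 ± 0.27 in B6 wild type gallbladder, 6.32 ± 0.65 in ICR Sox17+/- gallbladder, 4.97 ± 0.34 in cystic duct and 6.61 ± 0.43 in ICR wild type gallbladder (log2 signal, SD, n = 2 each). Ranked by level, each of the 4 gallbladder groups overlapped the next, and cystic duct stood below the lowest of them without overlap. By genotype, Fgf7 on 1422243_at read 5.54 and 5.18 in B6 Sox17+/- gallbladders, against 5.84 and 5.59 in B6 wild type, and 5.66 and 5.78 in ICR Sox17+/- gallbladders, against 6.42 and 6.14 in ICR wild type. Sox17+/- samples were below wild type samples within each strain, but the difference over both strains, -0.46 ± 0.13 SE, did not pass adjustment (limma, unadjusted p = 0.00981, adjusted p = 0.341). With 1 library left out it ran from -0.55 to -0.37 and passed in 0 of 8 fits (adjusted p = 0.116 to 0.901). The other Fgf7 probe set gave -0.30 ± 0.24 SE with groups that overlapped (adjusted p = 0.712).

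Fgf10, the ligand by which biliary mesenchyme signals to the epithelium, has a single probe set, 1420690_at, and it was dim. It read 4.55 and 4.75 in B6 Sox17+/- and 4.61 and 4.58 in B6 wild type gallbladders, against 5.15 and 4.77 in ICR Sox17+/- and 5.24 and 5.24 in ICR wild type gallbladders (log2 signal, filter at 4.81). All 4 B6 samples were below all 4 ICR gallbladder samples, by a small margin, and all 4 B6 values lay under the filter. The probe set passed the filter only through the ICR samples, so no fold is given. Its signal differed by -0.48 ± 0.11 SE on the log2 scale (limma adjusted p = 0.0318). The difference ran from -0.57 to -0.38 with single libraries left out and passed in 2 of 8 fits, those without replicate 2 of either ICR group. The adjusted p was 0.0574 without ICR wild type replicate 1, 0.0681 without ICR Sox17+/- replicate 1, and 0.0659 to 0.113 without 1 of the B6 samples. Sox17+/- and wild type gallbladders differed by -0.11 on the log2 scale over both strains, with an interval of -0.38 to 0.15 (adjusted p = 0.771).

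The cystic duct pair does not place Fgf10. Its samples read 4.57 and 5.58, below and above both ICR wild type gallbladder samples. The mean difference from gallbladder was -0.16 ± 0.32 SE (limma adjusted p = 0.753). It was -0.67 without cystic duct replicate 2 and 0.34 without replicate 1, fits that leave 1 cystic duct sample.

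Fgf9, a ligand that in the lung comes from mesothelium and epithelium, varied least among the ligands, with group means on 1420795_at spanning 0.31 log2 units. It read 6.61 and 6.54 in B6 Sox17+/- gallbladders and 6.61 and 6.46 in B6 wild type, against 6.86 and 6.68 in ICR Sox17+/- and 6.95 and 6.73 in ICR wild type. The B6 samples were lower without overlap, yet the difference of -0.25 ± 0.10 SE did not pass (limma, adjusted p = 0.142), nor did it in any of the 8 fits with a library left out (-0.31 to -0.20, adjusted p = 0.0985 to 0.363). Cystic duct values of 6.48 and 7.10 lay below and above both ICR wild type gallbladder samples. On the second Fgf9 probe set, 1438718_at, group means spanned 0.48 log2 units. There the B6 and ICR gallbladder samples overlapped (-0.26 ± 0.17 SE, limma adjusted p = 0.349). Its cystic duct values of 5.39 and 5.44 lay below both ICR wild type gallbladder samples, a difference that did not pass (limma adjusted p = 0.495).

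Among the receptors, Fgfr2 gave different answers by probe set. Probe set 1433489_s_at read 9.56 to 10.75 in all 10 samples, and its difference between B6 and ICR gallbladder was 0.14 ± 0.13 SE (limma, adjusted p = 0.485). Probe set 1420847_a_at read 8.17 and 8.22 in B6 Sox17+/- and 8.42 and 8.10 in B6 wild type gallbladders, against 7.87 and 8.16 in ICR Sox17+/- and 6.97 and 7.36 in ICR wild type gallbladders. On it Fgfr2 was 1.55-fold higher in B6 (log2 difference 0.63 ± 0.13 SE, 95% interval 0.32 to 0.94, adjusted p = 0.0206), although the ICR Sox17+/- sample at 8.16 overlapped the B6 range. The third Fgfr2 probe set, 1443211_at, was below the filter and read 3.74 to 4.27 in B6 gallbladders, against 4.72 to 5.20 in ICR gallbladders. The mean of the 3 probe sets differed by -0.076 (adjusted p = 0.696), the opposite sign. Which splice forms these probe sets detect is not given in the sources used here.

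The Fgfr2 strain difference on 1420847_a_at passed in 4 of 8 fits with a library left out (0.53 to 0.73). It was lost without ICR Sox17+/- replicate 1 (adjusted p = 0.0629), B6 wild type replicate 3 (0.0891), B6 Sox17+/- replicate 3 (0.0556) or B6 Sox17+/- replicate 4 (0.0757). The same probe set separated the genotypes in ICR, at 7.87 and 8.16 in Sox17+/- against 6.97 and 7.36 in wild type, a difference of 0.85 ± 0.19 SE that did not pass (adjusted p = 0.217). In B6 the corresponding difference was -0.06 ± 0.19 SE. There the brighter probe set, 1433489_s_at, read 10.54 and 10.55 in Sox17+/- against 10.17 and 10.16 in wild type, a difference of 0.38 ± 0.18 SE that did not pass (adjusted p = 1). The difference between the 2 strains' genotype effects, -0.91 ± 0.26 SE, did not pass either (unadjusted p = 0.0103, adjusted p = 0.816). With 1 library left out, the ICR difference on 1420847_a_at ran from 0.65 to 1.05. The highest value came without ICR wild type replicate 2, a fit that leaves 1 sample in that group.

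**Figure D4:**
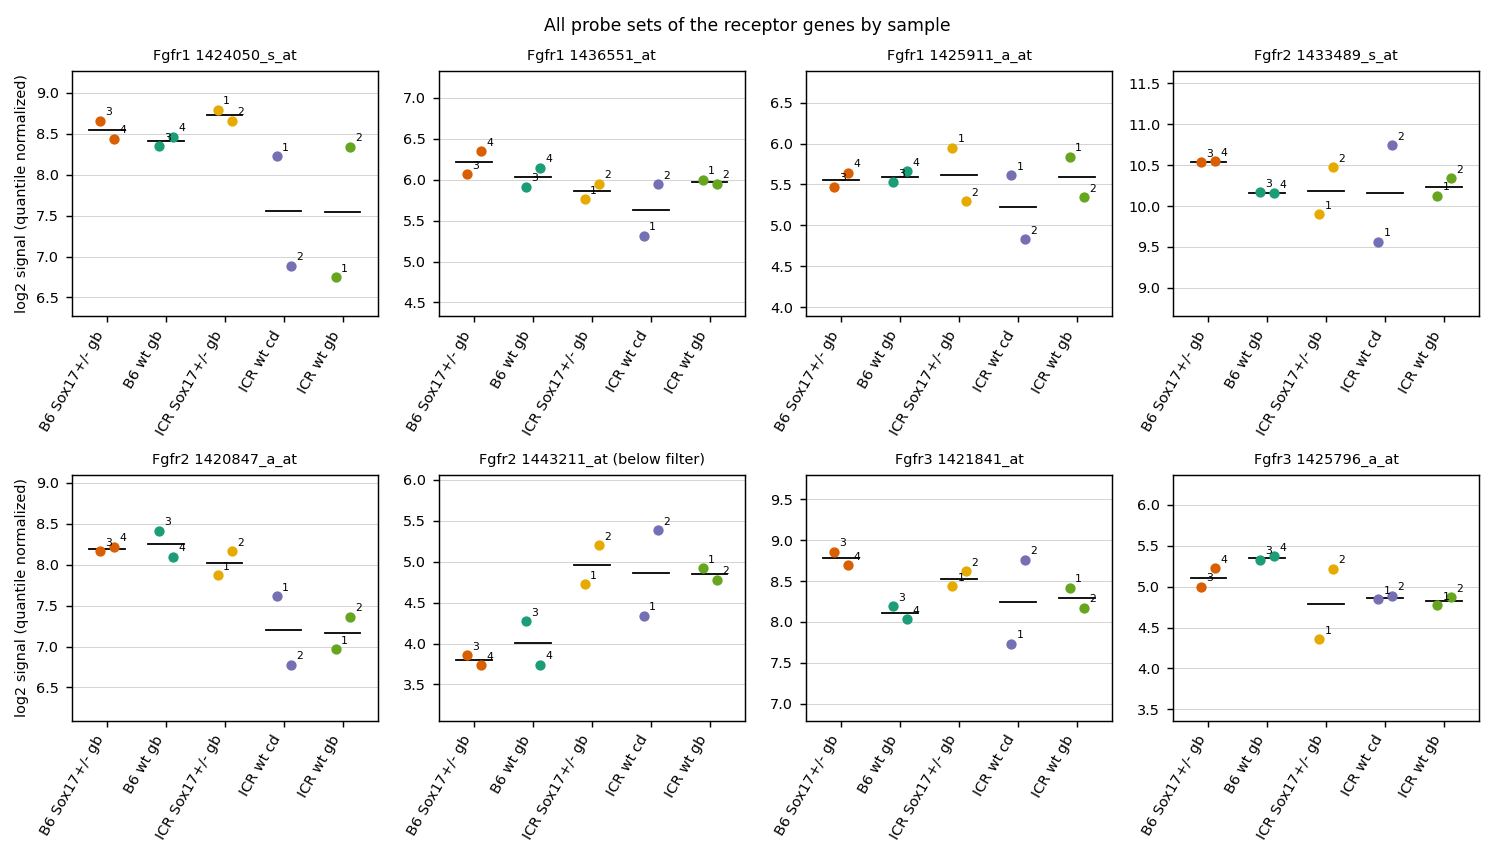
Log2 signal (y axes) of all 8 probe sets of Fgfr1, Fgfr2 and Fgfr3 by sample (gb gallbladder, cd cystic duct, wt wild type; points are samples with replicate numbers, bars are group means). The Fgfr2 probe set 1420847_a_at is higher in B6, 1433489_s_at shows no such difference past the test, and 1443211_at, below the filter, lies lower in B6.

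Fgfr3, known as a brake on cartilage growth, was higher in Sox17+/- gallbladders on its brighter probe set without reaching the threshold. On 1421841_at it read 8.86 and 8.69 in B6 Sox17+/- gallbladders, against 8.19 and 8.03 in B6 wild type, and 8.44 and 8.62 in ICR Sox17+/- gallbladders, against 8.42 and 8.17 in ICR wild type. All 4 Sox17+/- values exceeded all 4 wild type values. The difference over both strains was 0.45 ± 0.10 SE (95% interval 0.22 to 0.68), with an unadjusted p of 0.00253 and a limma adjusted p of 0.207. With 1 library left out it ran from 0.39 to 0.51 and passed in 0 of 8 fits (adjusted p = 0.107 to 0.774). In B6 alone it was 0.66 ± 0.14 SE (adjusted p = 0.505) and in ICR alone 0.23 ± 0.14 SE (adjusted p = 0.524). The dimmer probe set 1425796_a_at gave -0.14 ± 0.19 SE over both strains (adjusted p = 0.842). Cystic duct samples spread from 7.73 to 8.76 on 1421841_at.

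Fgfr1, the main mesenchymal receptor, had 2 groups whose mean was set by 1 library each. On 1424050_s_at it read 8.66 and 8.44 in B6 Sox17+/- gallbladders, 8.35 and 8.46 in B6 wild type, 8.80 and 8.66 in ICR Sox17+/- gallbladders, 8.23 and 6.89 in cystic duct, and 6.75 and 8.34 in ICR wild type gallbladder. Only ICR wild type gallbladder replicate 1 and cystic duct replicate 2 fell under 8. The ICR genotype difference of 1.18 ± 0.44 SE did not pass (limma, adjusted p = 0.360). It was 0.38 without ICR wild type replicate 1 and 1.98 without replicate 2, fits that leave 1 sample in that group. The other Fgfr1 probe sets, 1436551_at and 1425911_a_at, differed by -0.12 and 0.03 in ICR.

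Of the Sprouty genes, which encode feedback inhibitors of receptor tyrosine kinase signalling, Spry2 and Spry1 had lower values in cystic duct without passing the test. Spry2 on 1436584_at read 6.76 and 5.86 in cystic duct, against 7.38 and 7.37 in ICR wild type gallbladder, a log2 difference of -1.06 ± 0.31 SE (limma, adjusted p = 0.0617). Spry1 on 1415874_at read 8.43 and 8.17 in cystic duct, against 8.97 and 8.59 in gallbladder, a difference of -0.48 ± 0.18 SE (adjusted p = 0.131). The groups did not overlap for either gene on these probe sets. The second Spry2 probe set, 1421656_at, read 4.80 and 6.32 in cystic duct and 5.50 and 5.18 in gallbladder, so that its mean difference had the other sign (0.22 ± 0.43 SE).

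Etv5, an ETS transcription factor induced by FGF signalling, read 6.72 and 5.25 in cystic duct on 1428142_at, against 7.17 and 6.82 in ICR wild type gallbladder. Its difference of -1.01 ± 0.42 SE did not pass (limma, adjusted p = 0.159). For Spry2, Spry1 and Etv5 the lower value came from cystic duct replicate 2. Without cystic duct replicate 1 the differences were -1.52 for Spry2, -1.74 for Etv5 and -0.61 for Spry1. Without replicate 2 they were -0.61 for Spry2, -0.28 for Etv5 and -0.35 for Spry1. Each of these fits rests on 1 cystic duct library, so only the sizes are given.

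In gallbladder none of the Sprouty genes or Etv5 was called between strains or genotypes. On 1436584_at the B6 values of Spry2 were lower without overlap, although the highest B6 and the lowest ICR value both read 7.28. Spry2 on 1436584_at read 7.28 and 6.99 in B6 Sox17+/- and 6.95 and 6.86 in B6 wild type gallbladders, against 7.61 and 7.28 in ICR Sox17+/- and 7.38 and 7.37 in ICR wild type, a strain difference of -0.39 ± 0.11 SE (limma, adjusted p = 0.0609). It passed in 1 of 8 fits with a library left out, that without ICR Sox17+/- replicate 2 (-0.47, adjusted p = 0.0369). Spry1 read 8.50 to 8.97 in all 8 gallbladder samples. Spry4, another Sprouty inhibitor, read 4.65 to 5.21 over the 10 samples on its 1 probe set above the filter, 1440867_at, close to the filter itself. Genotype differences over both strains were 0.15 ± 0.11 SE for Spry2, -0.08 ± 0.10 SE for Spry1, 0.12 ± 0.12 SE for Spry4 and -0.22 ± 0.12 SE for Etv5, none of which passed (adjusted p = 0.595 to 0.821).

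In the Sox17+/- gallbladders 0 markers of any cell type list were called against wild type over both strains. Hepatocyte markers had a median difference of 0.80 with 9 of 9 above 0, and summed levels of 15.70 and 15.77 in B6 Sox17+/- against 15.82 and 15.37 in B6 wild type, and 15.88 and 15.57 in ICR Sox17+/- against 14.99 and 14.60 in ICR wild type. Skeletal muscle markers reached a summed level of 11.84 in B6 Sox17+/- replicate 3 and 9.05 in replicate 4, against 8.31 and 8.37 in B6 wild type. Mesenchyme markers had a median difference of -0.04 and biliary epithelial markers one of -0.05. Between strains, 4 of 8 leukocyte, 2 of 8 biliary epithelial and 1 of 9 hepatocyte markers were called higher in B6 while 2 of 10 mesenchyme and 1 of 5 neural markers were called lower. The part of these differences in the Fgfr3, Fgfr2 and Fgf10 values was not tested.

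The rest of the pathway was read from lists of 62 further genes, of which 54 were measured and 39, with 79 probe sets, lay above the filter. None of the 79 was called in any genotype comparison or in the difference between strains, with 10 at an unadjusted p under 0.05 over both strains (against 9.94% of all probe sets tested), 11 in ICR (12.4%), 5 in B6 (4.93%) and 9 for the difference between strains (5.81%). In cystic duct 0 of 79 were called higher (background 4.02%) and 5 lower (background 7.15%), a share near that of all probe sets, with a median of -0.14 against -0.07 over all probe sets. Both numbers changed with the library left out, so neither the lower calls nor the absence of higher calls is stable. Fits without a cystic duct or ICR wild type gallbladder sample leave 1 sample in that group, so their counts are not given. Of the 5 probe sets called lower, 2 were of Sulf2, a sulfatase that trims the heparan sulfate on which FGFs bind (1430388_a_at, -0.87 ± 0.18 SE, limma adjusted p = 0.0211). Another was that of Il17rd, a membrane antagonist of FGF signalling also called Sef (-0.99 ± 0.22 SE, adjusted p = 0.0305). The others were Fgf11, an intracellular FGF homologue (-0.93 ± 0.21 SE, adjusted p = 0.0317), and Gpc3, a cell surface heparan sulfate proteoglycan (-0.47 ± 0.11 SE, adjusted p = 0.0379). Il17rd read 7.13 and 6.69 in cystic duct, against 7.81 and 7.99 in ICR wild type gallbladder, without overlap. Sulf2 on 1430388_a_at read 8.58 and 8.35 in cystic duct, against 9.43 and 9.24 in gallbladder, again without overlap. A further Sulf2 probe set, 1442408_at, was not called. It read 6.01 and 7.23 in cystic duct, below and above both ICR wild type gallbladder samples, at 6.85 and 6.66. With 1 library left out, Sulf2 on 1430388_a_at passed in 8 of 10 fits (-0.98 to -0.75), Il17rd in 4 (-1.21 to -0.76), Fgf11 in 2 (-1.05 to -0.80) and Gpc3 in 2 (-0.49 to -0.45). By list, the calls were 1 of 10 probe sets in the ligand list and 1 of 18 receptor and coreceptor probe sets. Of the signal relay probe sets 0 of 20 were called, and of the feedback and target probe sets 3 of 31. The feedback and target list had a median of -0.26, but its genes did not all read lower. Dusp6 on 1415834_at read 9.71 and 9.63 in cystic duct, against 9.29 and 9.13 in ICR wild type gallbladder. Egr1 on 1417065_at read 9.35 and 9.38, against 9.10 and 8.51. Both were higher without overlap, and neither was called. The call in the ligand list was that of Fgf11, the intracellular homologue.

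Between strains 5 of the 79 were called higher (background 6.73%) and 13 lower (background 8.9%) in B6, 18 in either direction (background 15.6%), with a median of -0.01 against 0.05 over all probe sets. With 1 library left out 0 to 7 were called higher and 6 to 15 lower. The lowest p-values were those of Flrt2, a membrane protein with leucine-rich repeats (1438702_at, -1.68 ± 0.24 SE, limma adjusted p = 0.00539), Braf, a kinase of the ERK cascade (1456505_at, -1.81 ± 0.26 SE, adjusted p = 0.00584), Cbl, a ubiquitin ligase (1455886_at, -2.54 ± 0.39 SE, adjusted p = 0.00712), Ptpn11, the phosphatase SHP2 (1427699_a_at, -1.66 ± 0.26 SE, adjusted p = 0.00817), and Spred2, an inhibitor related to Sprouty (1436892_at, -2.04 ± 0.33 SE, adjusted p = 0.00855). All 4 B6 values of that Spred2 probe set (4.21 to 4.76) lay under the filter, so that it was tested only through its ICR signal, and its difference has no firm size. The same holds for another called Braf probe set, 1442749_at, with B6 values of 3.93 to 4.36. Probe sets of one gene disagreed here as well. Braf was also called lower on 1435480_at (-0.55 to -0.40 with 1 library left out). Its brightest probe set, 1435434_at, was not called. There the group means were 8.33 in B6 Sox17+/- and 8.41 in B6 wild type, against 8.16 in ICR Sox17+/- and 8.37 in ICR wild type. Cbl on 1434829_at was called higher by 0.30 (adjusted p = 0.0453) and Spred2 on 1441802_at higher by 0.42 (adjusted p = 0.0393). Ptpn11 on 1451225_at differed by 0.17 (adjusted p = 0.118) and Flrt2 on 1455096_at by 0.09 (adjusted p = 0.554). A further Flrt2 probe set, 1456874_at, was called lower (-1.21 to -0.73 with 1 library left out).

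For the 4 members whose group means spanned at least 1 log2 unit on the gene's brightest probe set, the genes most like them across the 10 samples were sought among 13141 genes. Fgf7 was most like C1d (r = 0.983, Spearman rho = 0.976), Smim15 (r = 0.978) and Sphkap (r = 0.976), all with both cystic duct samples lowest. Spry2 was most like Zfyve21 (r = 0.973), Metrnl (r = 0.969) and Smim14 (r = 0.956), and Etv5 was most like Zkscan3 (r = 0.984), Zfp180 (r = 0.984) and Fbln7 (r = 0.976). Fgfr1 was most like Kctd12b (r = 0.971), Ttc26 (r = 0.970) and Mtmr1 (r = 0.970), and Kctd12b read 6.71 in ICR wild type gallbladder replicate 1 and 6.50 in cystic duct replicate 2, against 8.12 to 8.65 in the other 8 samples. For Fgfr1 the rank correlation with Kctd12b was 0.648, since the likeness rests on those 2 libraries. Etv5 and its neighbours likewise had their lowest value in cystic duct replicate 2. These values describe the 10 samples, which share groups and libraries.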

How the data were processed

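RNA of 10 samples was measured on Affymetrix arrays, and the authors deposited 1 log2 signal for each probe set and sample. The sources used here do not give how these were background corrected, summarised and normalized. Groups came from the sample titles and strain labels, since the tags for stage and genotype are exchanged in the sample records. Of 45101 probe sets, 64 controls, 932 with several genes and 9160 with none were left out; Entrez identifiers of 34741 of the remaining 34945 were found in the RefSeq gene table and 204 were not.

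The samples had deposited medians between 5.51 and 6.07 and interquartile ranges between 2.75 and 3.85, so they were quantile normalized. Probe sets under the 30th percentile of mean signal were dropped, which left 24461. limma 3.58.1 (R 4.3.3) fitted 1 mean per group with a variance trend, on the 8 gallbladder samples (4 residual degrees of freedom, 7.04 with the prior) or, for cystic duct, on all 10 (5, and 8.02 with the prior). P-values are two-sided, adjusted by Benjamini-Hochberg over all probe sets tested, with a threshold of 0.05. The number of arrays limits the precision. The fit was tested on simulated data.

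All 10 genes were read by every probe set, but the Spry4 probe sets below the filter are given without values. Of 62 other pathway genes, those that passed are named, at most 6 per comparison. Dusp6 and Egr1 are given for cystic duct as well, chosen after seeing the data. Nearest patterns are the 3 genes with the highest Pearson r. The 10 genes and all lists were chosen with earlier results of these data known. Alternatives covered scaling, filter, probe set choice, variance model, samples fitted, a replicate block and each library left out; leaving out libraries for the other pathway genes was chosen after seeing the data.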

Additional observations from a re-analysis of the deposited data

How the results depend on the processing

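Of 351 single values of the 10 genes recomputed under the alternatives, 314 kept direction and side of the threshold, 26 lost the threshold, 9 gained it and 2 changed sign. The sign changes were Fgfr2 1420847_a_at between strains as the mean of its probe sets (-0.076), which takes in a dim probe set of opposite sign, and Fgf10 in cystic duct, which ran from -0.67 to 0.34 with a library left out and was above 0 without cystic duct replicate 1; the cause was not tested.

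The number of the 17 probe sets called between strains, 2, became 1 with values as deposited, 1 with the 50th percentile filter, 0 with 1 probe set per gene, 0 with the mean of probe sets and 0 with all 10 samples fitted. For cystic duct, 2 became 0 with the 50th percentile filter, 1 gene with the mean of probe sets, 0 with array weights, 0 with only the 4 samples compared, and 0 relative to the mesenchyme markers, a setting chosen after seeing the data. The stricter filter tests fewer probe sets, without Fgf7 and Fgf10. With each library left out, the calls ran from 0 to 1 over both strains, 0 to 2 in ICR, 0 to 0 in B6, 0 to 1 for the difference between strains' genotype effects, 0 to 4 between strains and 0 to 6 in cystic duct.

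Over all probe sets, the 33 calls over both strains became 67 as deposited, 55 with no filter, 64 with 1 probe set per gene, 69 with their mean, 2 with all 10 samples, 13 with the replicate block and 3 to 1059 with a library left out (1059 without ICR wild type replicate 2). In ICR, 12 became 38 as deposited, 5 centred on medians, 19 with 1 probe set per gene, 1 with array weights, 1 with all 10 samples, 1 with the block and 0 to 1181. In B6, 3 became 5 with 1 probe set per gene, 48 with array weights, 1 with all 10 samples, 0 with the block and 0 to 8. The difference between strains' effects ran from 0 to 874. Between strains, 3822 became 1212 with 1 probe set per gene, 1886 with their mean, 1392 with all 10 samples and 1488 to 5237. In cystic duct, 2732 became 1655 with the mean, 0 with array weights, 0 with only the 4 samples, 329 relative to mesenchyme and 782 to 11918.

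Samples of a genotype pair share replicate numbers, but no label ties a number to a litter or day, and deviations of same-numbered samples correlated at 0.390 and 0.306 between genotypes and at 0.0738 between cystic duct and gallbladder. With the replicate block, 0 of the 17 probe sets were called over both strains, 0 in ICR, 0 in B6 and 2 in cystic duct, as without it. No blocked fit was possible between strains, because numbers 1 and 2 are all ICR and 3 and 4 all B6.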
